A study of Arabidopsis thaliana with 8 samples.

Results

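The loci described here are 140 Arabidopsis thaliana genes known in the annotation only by a nuclear locus code, such as AT4G10860. Their expression stood apart in wild-type seedlings moved to liquid medium without SMIFH2. They were chosen by their values: the mean of the liquid control lay at least 0.7 on the log2 scale above, or at least 0.7 below, the means of both wild type on solid medium and SMIFH2-treated wild type in liquid medium. Neither array of the liquid control overlapped the arrays of those 2 groups, and the fh1-1 mutant on solid medium stayed within 0.7 of its wild type. On the log2 scale a difference of 1 is a doubling, and 0.7 is the threshold of the choice. Of 14750 unnamed nuclear loci measured, 73 were high in the liquid control (0.495%) and 67 were low (0.454%), and the whole series held 16554 genes with a probe set of their own. Since these values picked the loci, the 3 differences of liquid control against solid wild type, SMIFH2 against liquid control, and fh1-1 against wild type are given as descriptions, with no test.

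Total RNA of whole 7-day-old seedlings of the Columbia background was measured on 8 Affymetrix arrays, 2 in each of 4 groups, and each array held a separate pool of about 120 seedlings. In SMIFH2 wt liquid, seedlings with wild-type FH1 spent 6 days on solid MS plates and then 1 day shaken in liquid MS with 20 uM SMIFH2 under continuous light. In control wt liquid the same schedule was followed without SMIFH2; whether these seedlings received its solvent is not given in the sources used here. In fh1-1 solid, mutant seedlings stayed on solid MS for all 7 days in long days (16 h light, then 8 h dark), and in wt solid the backcrossed wild-type sister line of the mutant did the same. All 4 groups grew in long days on solid plates before the last day. Medium, shaking, light regime, transfer and any solvent thus changed together between control wt liquid and wt solid and cannot be told apart. Because whole seedlings were pooled, fewer cells of a type and less RNA per cell cannot be told apart either.

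Formins nucleate actin filaments and promote their growth, and FH1 is a formin anchored in the cell membrane. SMIFH2 is a small molecule that inhibits the FH2 domain with which formins hold the growing filament end. Loci without a name are genes that were predicted from the genome and for which the annotation used here gives no symbol, so their products are not described here. All 140 were annotated in RefSeq as protein coding, of which 137 were matched by gene ID and 3 by locus code, and 0 had a symbol or a worded synonym there.

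Across the arrays the median log2 value was 3.89 to 3.96 and the 25th percentile 2.13 to 2.24. FH1 has no listed probe set, and its transcript in the mutant was not examined. Markers of shoot and root were above the 25th percentile on every array, and the single measured pollen marker, AT5G45880, lay between 1.33 and 1.86, under those percentiles.

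Among the 73 high loci, control wt liquid exceeded wt solid by 0.71 to 3.25 (median 0.98), and SMIFH2 wt liquid differed from control wt liquid by -2.97 to -0.70 (median -1.09). The median over these loci of the group mean was 3.64 in SMIFH2 wt liquid, 4.84 in control wt liquid, 3.54 in fh1-1 solid and 3.58 in wt solid. The standard error of a difference between 2 groups, from a fit to all genes, had a median of 0.21 over the 140 loci and ran from 0.14 to 0.84. Over all unnamed loci the medians of the same 2 differences were -0.03 and -0.02.

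AT4G10860 was the high locus whose liquid control mean lay farthest, on the deposited scale, from the nearer of wt solid and SMIFH2 wt liquid. Its log2 values were 1.59 and 1.96 in SMIFH2 wt liquid, 5.01 and 4.48 in control wt liquid, 1.31 and 1.58 in fh1-1 solid, and 1.64 and 1.45 in wt solid. The 2 liquid control arrays were above the 25th percentile and the other 6 were under it, where a signal is not shown to be above background, so no fold is given. On the deposited scale the difference of control wt liquid from wt solid was 3.20 ± 0.21 (SE, n = 2 arrays per group), and that of SMIFH2 wt liquid from control wt liquid was -2.97. Across the 73 high loci, 7 had all 6 arrays outside the liquid control under the 25th percentile, so the sizes of their differences carry the same limit, and 53 had all 8 arrays above it.

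AT5G24200 had 2.56 and 2.60 in SMIFH2 wt liquid, 5.65 and 4.02 in control wt liquid, 2.05 and 1.85 in fh1-1 solid, and 1.90 and 2.18 in wt solid. The liquid control arrays were far from each other, yet the lower of them was still above all 6 other arrays. Without the first control array, SMIFH2 wt liquid differed from control wt liquid by -1.44, and without the second by -3.07. AT5G38940 read 3.09 and 3.50 in SMIFH2 wt liquid, 5.52 and 4.71 in control wt liquid, 2.94 and 2.56 in fh1-1 solid, and 3.33 and 1.74 in wt solid. AT5G47330 gave 2.34 and 2.10 in SMIFH2 wt liquid, 4.38 and 3.71 in control wt liquid, 2.18 and 2.02 in fh1-1 solid, and 2.80 and 1.66 in wt solid. In both loci the wt solid arrays were farther from each other than the means of SMIFH2 wt liquid and fh1-1 solid were.

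AT2G16630, at a strong signal, had 7.45 and 7.44 in SMIFH2 wt liquid, 9.70 and 9.23 in control wt liquid, 7.35 and 7.25 in fh1-1 solid, and 8.06 and 7.40 in wt solid. Its liquid control mean was 4.05-fold above SMIFH2 wt liquid and 3.33-fold above wt solid. AT1G15010 had 4.01 and 4.22 in SMIFH2 wt liquid, 6.40 and 6.23 in control wt liquid, 4.31 and 4.58 in fh1-1 solid, and 4.39 and 4.78 in wt solid. AT5G26200, at a lower signal, had 2.68 and 2.95 in SMIFH2 wt liquid, 4.90 and 4.76 in control wt liquid, 2.59 and 2.55 in fh1-1 solid, and 3.49 and 2.90 in wt solid. For these loci the mean of SMIFH2 wt liquid differed from that of wt solid by -0.28, -0.47 and -0.38 in that order, so the liquid control stood farther from SMIFH2 wt liquid than from wt solid.

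**Figure D1:**
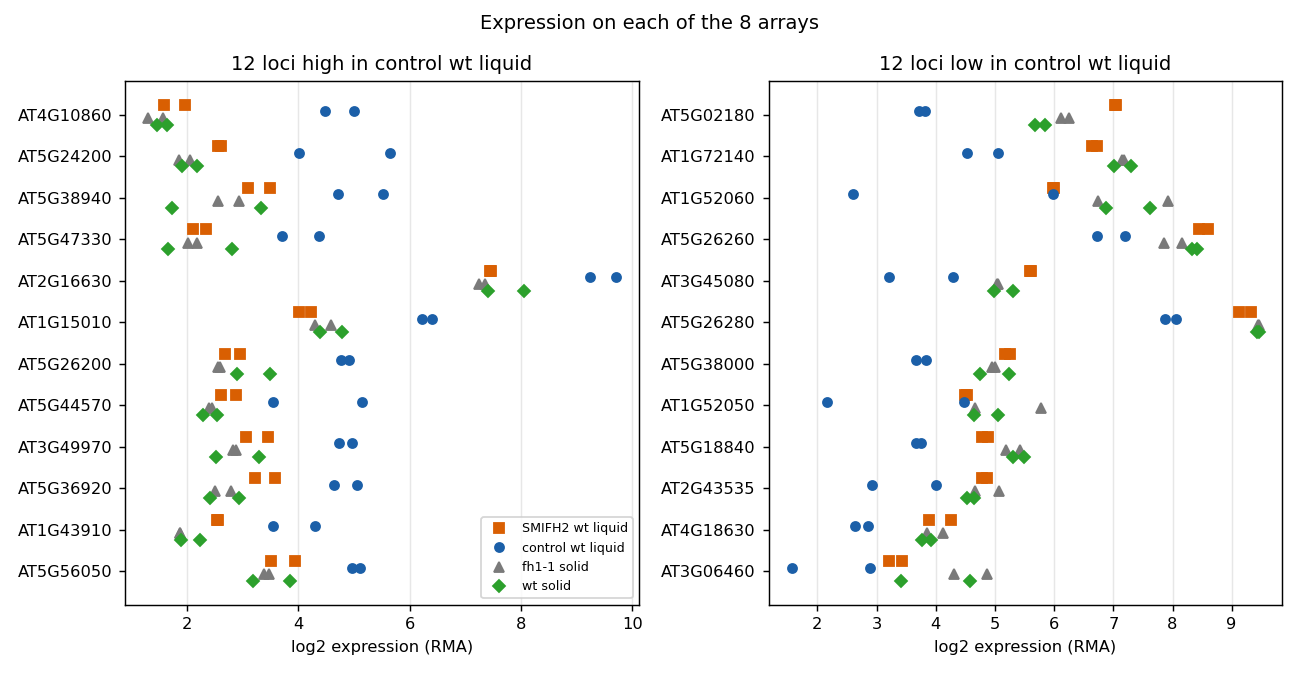
Log2 expression (x axis) on each of the 8 arrays for the 12 high loci (left) and the 12 low loci (right) whose liquid control mean was farthest from the nearer of wt solid and SMIFH2 wt liquid; each point is 1 array and colours mark the groups. The liquid control arrays of AT4G10860 sit at 5.01 and 4.48, above the other 6 arrays, while those of AT1G52060 sit at 5.98 and 2.60, the first of them just beside the SMIFH2 arrays.

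AT5G44570 had 2.88 and 2.61 in SMIFH2 wt liquid, 5.15 and 3.54 in control wt liquid, 2.44 and 2.39 in fh1-1 solid, and 2.53 and 2.29 in wt solid. Without its first control array the difference of control wt liquid from wt solid was 1.13, against 2.74 without the second. AT3G49970 read 3.45 and 3.05 in SMIFH2 wt liquid, 4.96 and 4.72 in control wt liquid, 2.88 and 2.83 in fh1-1 solid, and 3.30 and 2.52 in wt solid. AT1G43910 gave 2.54 and 2.56 in SMIFH2 wt liquid, 4.29 and 3.55 in control wt liquid, 1.87 on both arrays of fh1-1 solid, and 2.23 and 1.90 in wt solid. The mutant arrays of AT1G43910 lay under all others, with fh1-1 solid at -0.19 against wt solid. Both mutant arrays and the second wt solid array were under the 25th percentile, where a signal is not shown to be above background. AT5G56050 had 3.51 and 3.94 in SMIFH2 wt liquid, 5.10 and 4.96 in control wt liquid, 3.47 and 3.39 in fh1-1 solid, and 3.19 and 3.85 in wt solid. Its control arrays differed little from each other and were above the remaining 6.

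The 67 low loci showed the opposite pattern. Control wt liquid differed from wt solid by -2.96 to -0.70 (median -0.95). The lowest of these, in AT1G52060, was -1.27 without the second control array and -4.645 without the first. Over the low loci SMIFH2 wt liquid exceeded control wt liquid by 0.71 to 3.27 (median 0.97). The median over these loci of the group mean was 4.84 in SMIFH2 wt liquid, 3.73 in control wt liquid, 4.98 in fh1-1 solid and 4.93 in wt solid. Both liquid control arrays were under the 25th percentile in 2 of them, and 57 had all 8 arrays above it.

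AT5G02180 was the low locus with the largest distance of that kind. It had 7.04 and 7.05 in SMIFH2 wt liquid, 3.71 and 3.82 in control wt liquid, 6.12 and 6.24 in fh1-1 solid, and 5.67 and 5.85 in wt solid. Each group formed a tight pair, and none of the 4 pairs overlapped another. The liquid control mean was 9.68-fold below SMIFH2 wt liquid and 3.98-fold below wt solid. AT1G72140 had 6.65 and 6.73 in SMIFH2 wt liquid, 5.05 and 4.52 in control wt liquid, 7.14 and 7.18 in fh1-1 solid, and 7.02 and 7.29 in wt solid. Here control wt liquid differed from wt solid by -2.37 ± 0.19, and SMIFH2 wt liquid lay between the liquid control and the solid groups.

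AT3G45080 read 5.61 and 5.60 in SMIFH2 wt liquid, 4.29 and 3.22 in control wt liquid, 5.03 and 5.05 in fh1-1 solid, and 4.99 and 5.31 in wt solid. AT5G38000 gave 5.16 and 5.26 in SMIFH2 wt liquid, 3.66 and 3.84 in control wt liquid, 5.0 and 4.95 in fh1-1 solid, and 4.75 and 5.24 in wt solid. AT5G18840 had 4.79 and 4.89 in SMIFH2 wt liquid, 3.67 and 3.74 in control wt liquid, 5.18 and 5.42 in fh1-1 solid, and 5.31 and 5.48 in wt solid. In the last of these the solid groups were higher than SMIFH2 wt liquid on every array, whereas in AT3G45080 they were lower. The control arrays of AT3G45080 were spread, and the difference of control wt liquid from wt solid was -1.94 without the first and -0.87 without the second.

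AT4G18630 had 3.88 and 4.27 in SMIFH2 wt liquid, 2.64 and 2.85 in control wt liquid, 3.85 and 4.12 in fh1-1 solid, and 3.92 and 3.77 in wt solid. AT3G06460 read 3.22 and 3.43 in SMIFH2 wt liquid, 2.89 and 1.57 in control wt liquid, 4.31 and 4.87 in fh1-1 solid, and 3.42 and 4.58 in wt solid. Its first control array was near the SMIFH2 arrays, and without the second control array SMIFH2 wt liquid exceeded control wt liquid by 0.43, against 1.75 without the first.

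The distance that the choice turned on, from the liquid control mean to the nearer of the other 2 means, was 0.70 to 2.97 in the high loci (median 0.90) and 0.70 to 1.99 in the low loci (median 0.84). It reached 1 in 25 high and 18 low loci, so 48 and 49 of them lay between 0.7 and 1. Just inside the threshold were AT2G01360 at 0.7004 and AT5G49215 at 0.7037 among the high loci, and AT5G03380 at 0.7001 and AT1G16220 at 0.7018 among the low loci. Just outside were AT3G57800 at 0.6955 and AT1G07985 at 0.6899 on the high side, and AT1G02670 at 0.6981 and AT2G39650 at 0.6969 on the low side. AT3G57800, which was left out, had 7.19 and 7.20 in SMIFH2 wt liquid, 7.91 and 7.87 in control wt liquid, 7.56 and 7.72 in fh1-1 solid, and 7.16 and 6.93 in wt solid. AT2G01360, which was kept, had 1.82 and 1.59 in SMIFH2 wt liquid, 2.82 and 1.99 in control wt liquid, 2.48 and 1.55 in fh1-1 solid, and 1.66 and 1.69 in wt solid. The gap between arrays was smaller in AT3G57800 than in AT2G01360 in 3 of the 4 groups, wt solid being the exception.

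**Figure D2:**
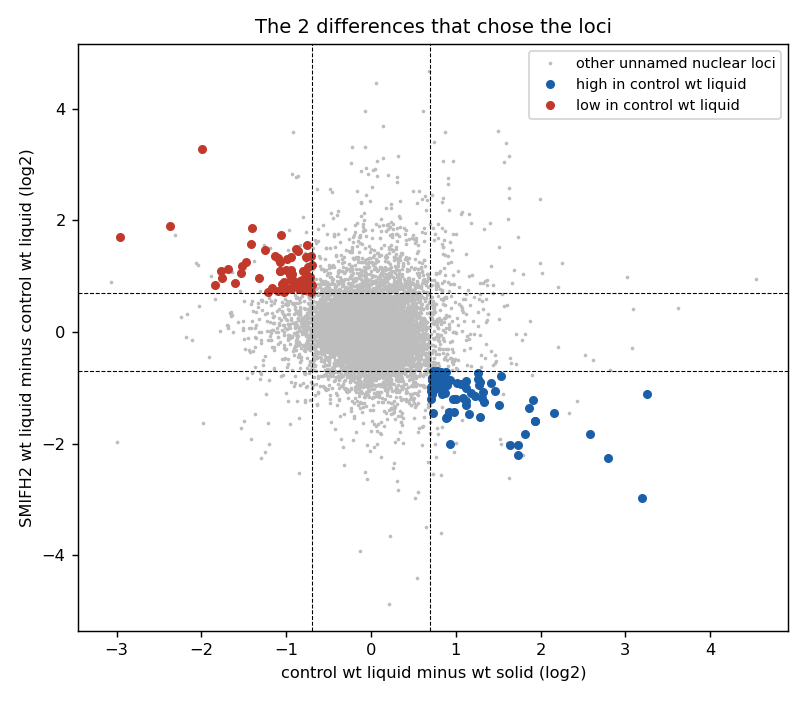
Difference of control wt liquid from wt solid (x axis, log2) against difference of SMIFH2 wt liquid from control wt liquid (y axis, log2) for the unnamed nuclear loci, with the 73 high loci in blue, the 67 low loci in red, the others in grey and dashed lines at 0.7 and -0.7. The coloured points fill the upper left and lower right corners because the choice was made on both axes, and grey points in those corners failed the condition on fh1-1 or on overlap.

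In the order of the conditions, 401 unnamed loci had control wt liquid at least 0.7 above wt solid. Of these 105 were also at least 0.7 above SMIFH2 wt liquid, 76 of those had fh1-1 solid within 0.7 of wt solid, and 73 had arrays that did not overlap. On the low side the numbers were 500, 95, 69 and 67. The same conditions held for 12 high (0.705%) and 13 low (0.764%) of 1701 nuclear genes with a symbol. When wt solid was put in the place of control wt liquid, so that it had to stand apart from control wt liquid and fh1-1 solid with SMIFH2 and control wt liquid within 0.7, 193 unnamed loci were high (1.31%) and 108 were low (0.732%). These shares describe the arrays and were not tested against each other.

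The 2 control arrays differed from each other more in these loci than elsewhere. The median gap between the arrays of a group over the 140 loci was 0.18 in SMIFH2 wt liquid, 0.36 in control wt liquid, 0.20 in fh1-1 solid and 0.24 in wt solid, while over all unnamed loci it was 0.17, 0.21, 0.15 and 0.19. A gap of at least 1 between the control arrays was found in 10 of the 140 loci (7.14%), against 168 of all 14750 unnamed loci (1.14%). The choice used the mean of these arrays, so an array far out can carry a locus past the threshold. In 5 high and 7 low loci the gap between the control arrays was larger than the distance that chose them. The first control array was the higher one in 51 of 73 high loci and in 38 of 67 low loci, against 50.9% of all unnamed loci.

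AT1G52060 had the widest gap between control arrays, with 6.00 and 5.99 in SMIFH2 wt liquid, 5.98 and 2.60 in control wt liquid, 6.74 and 7.92 in fh1-1 solid, and 6.88 and 7.62 in wt solid. AT1G52050 came next, with 4.53 and 4.49 in SMIFH2 wt liquid, 4.48 and 2.16 in control wt liquid, 4.67 and 5.77 in fh1-1 solid, and 4.64 and 5.05 in wt solid. Without the second control array, SMIFH2 wt liquid exceeded control wt liquid by 0.01 in AT1G52060 and by 0.03 in AT1G52050, and without the first by 3.39 and 2.35. The distance of these loci from SMIFH2 wt liquid therefore rested on that single array.

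**Figure D3:**
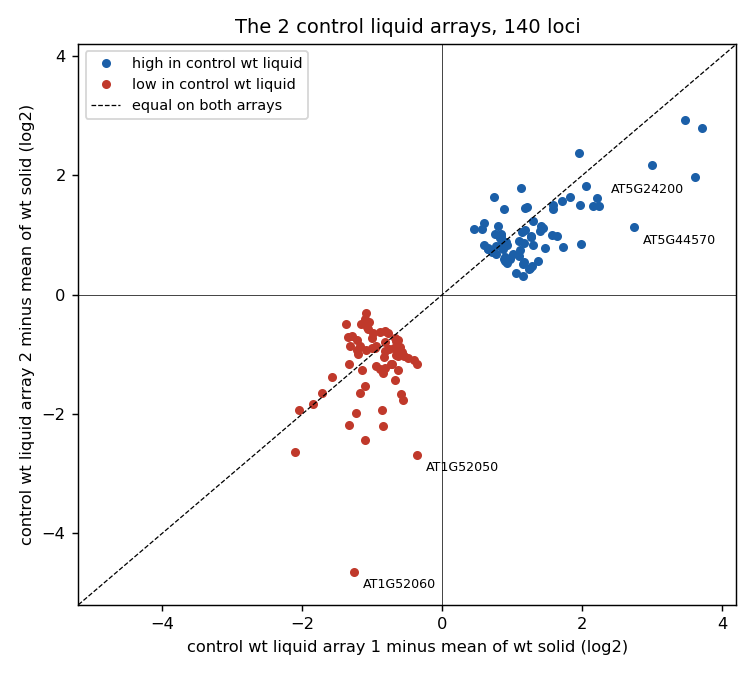
First (x axis) and second (y axis) control wt liquid array, each minus the mean of wt solid (log2), for the 73 high loci (blue) and the 67 low loci (red); the dashed line marks equal values. Most points lie within 1 of the line, whereas AT1G52060 and AT1G52050 lie far below it because their second array read 2.60 and 2.16.

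Comparisons of SMIFH2 wt liquid with wt solid and with fh1-1 solid carried no threshold in the choice. They use the same arrays as the comparisons that did, and the difference from wt solid is the sum of the 2 differences with a threshold. The counts are therefore set beside those over all genes and support nothing, and single loci are given with their differences and no p. At an adjusted p under 0.05 in limma, with the adjustment over all 16554 genes, 8 of the 140 loci were higher and 6 were lower in SMIFH2 wt liquid than in wt solid. Over all genes, 10.3% were called higher, 11.6% lower and 21.8% in either direction; the 14 calls among the 140 loci are a smaller share than that, and 10 of the 14 were lost in 3 to 9 of 15 alternative settings. The high loci held 4 of the higher and 4 of the lower calls, and 65 were not called. Among the low loci 4 were called higher and 2 lower, and 61 were not called. The difference of SMIFH2 wt liquid from wt solid had a median of -0.01 over the high loci (range -1.09 to 2.14) and of 0.04 over the low loci (range -1.25 to 1.28), against -0.06 over all genes. The mean of SMIFH2 wt liquid lay on the same side of wt solid as the liquid control in 36 high and 26 low loci, and beyond wt solid in 37 and 41.

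The largest of these differences was that of AT1G44130. This locus had 6.34 and 6.30 in SMIFH2 wt liquid, 7.89 and 6.97 in control wt liquid, 3.75 and 4.16 in fh1-1 solid, and 4.0 and 4.36 in wt solid. Both liquid groups were above both solid groups on every array, and the control was the higher of the liquid groups. SMIFH2 wt liquid exceeded wt solid by 2.14 ± 0.28 (SE, n = 2 arrays per group) and fh1-1 solid by 2.37. The distance of its liquid groups from each other depended on the first control array, at -0.65 without it and -1.57 without the second.

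AT5G02180, the low locus described above, had SMIFH2 wt liquid above wt solid by 1.28 ± 0.15. Here SMIFH2 wt liquid and the liquid control lay on opposite sides of wt solid. AT1G31710 had 8.50 and 8.67 in SMIFH2 wt liquid, 7.72 and 7.74 in control wt liquid, 9.22 and 9.19 in fh1-1 solid, and 9.42 and 9.73 in wt solid. Its difference of SMIFH2 wt liquid from wt solid was -0.99 ± 0.16, and both liquid groups were under both solid groups on every array. AT1G80130 had 4.13 and 4.17 in SMIFH2 wt liquid, 4.97 and 4.89 in control wt liquid, 3.49 and 3.68 in fh1-1 solid, and 3.45 and 3.34 in wt solid. SMIFH2 wt liquid exceeded wt solid there by 0.76 ± 0.15.

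Among the loci whose call was lost in some settings, AT3G21330 had 3.20 and 3.34 in SMIFH2 wt liquid, 5.46 and 5.10 in control wt liquid, 3.79 and 3.54 in fh1-1 solid, and 4.86 and 3.85 in wt solid. Its difference of SMIFH2 wt liquid from wt solid was -1.09 ± 0.29, and -0.58 without the first wt solid array. AT3G15534 had 2.76 and 2.78 in SMIFH2 wt liquid, 4.43 and 4.04 in control wt liquid, 3.37 and 3.69 in fh1-1 solid, and 3.32 and 3.69 in wt solid, with a difference of -0.73 ± 0.20. AT3G06435 had 6.75 and 6.72 in SMIFH2 wt liquid, 8.32 and 8.24 in control wt liquid, 7.00 and 6.99 in fh1-1 solid, and 7.57 and 7.22 in wt solid, with a difference of -0.66 ± 0.16. In these 3 high loci SMIFH2 wt liquid was the lowest of the 4 groups on both arrays. AT1G67865, a low locus, had 7.58 and 7.50 in SMIFH2 wt liquid, 5.68 and 6.27 in control wt liquid, 7.00 and 7.09 in fh1-1 solid, and 6.98 and 6.49 in wt solid. SMIFH2 wt liquid was the highest group there, by 0.81 ± 0.22 over wt solid.

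**Figure D4:**
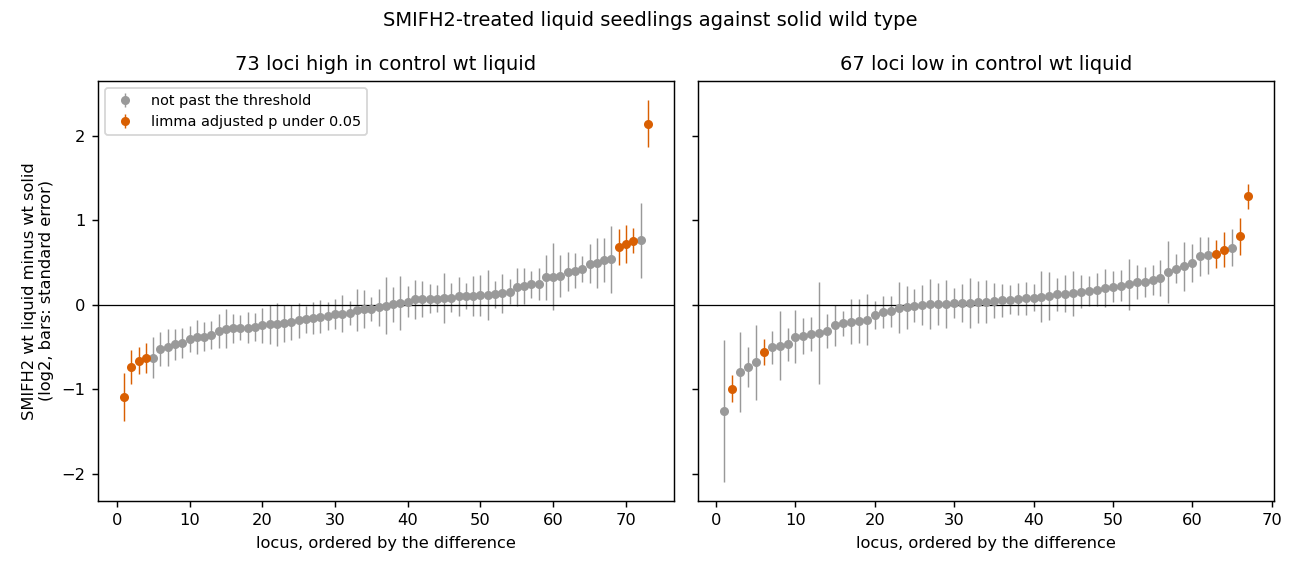
Difference of SMIFH2 wt liquid from wt solid (y axis, log2, with bars of 1 standard error) for the 73 high loci (left) and the 67 low loci (right), ordered by that difference; orange points had an adjusted p under 0.05 in limma. Most loci lie near 0, with AT1G44130 at 2.14 on the left and AT5G02180 at 1.28 on the right as the highest points.

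Against fh1-1 solid, the difference of SMIFH2 wt liquid had a median of 0.15 over the high loci (range -0.76 to 2.37) and 0.02 over the low loci (range -1.34 to 0.86). Over all genes 0.115% were called higher and 0.0302% lower in this comparison. AT1G44130 was the 1 locus of the 140 called higher. That call was lost in 5 of 15 settings, among them those without either SMIFH2 array or either fh1-1 array. By limma 0 of the 140 loci were called lower. The count called lower was 0 in every alternative setting too.

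The mutant was held within 0.7 of its wild type by the choice, so its share of calls over all genes, 22.6% between fh1-1 solid and wt solid in limma, is given only as background. Within that bound, fh1-1 solid was under wt solid in the mean in 54 of 73 high loci (median -0.13). It was above wt solid in 38 of 67 low loci (median 0.02). Over all unnamed loci the median was -0.05, so more of them lay under wt solid than above it. The exact share of all unnamed loci was not counted, and these counts are not read as particular to the 140 loci.

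A second probe set was present for 2 of the loci. The second set of AT2G13422 had 1.78 and 1.67 in SMIFH2 wt liquid, 2.69 and 2.57 in control wt liquid, 1.21 and 1.67 in fh1-1 solid, and 1.83 and 1.98 in wt solid. Control wt liquid exceeded wt solid by 0.73 there, but the arrays of the other 3 groups lay under the 25th percentile. The brighter set gave 0.85, and 0.45 to 1.25 when 1 array was left out. In AT5G59660 only the brighter set showed the difference. The other lay under the 25th percentile on all arrays except the first of fh1-1 solid. A signal there is not shown to be above background, so it cannot contradict the brighter set. The brighter one had 3.44 and 2.90 in SMIFH2 wt liquid, 2.01 and 2.27 in control wt liquid, 2.86 and 3.02 in fh1-1 solid, and 2.81 and 2.99 in wt solid, whereas the other read between 1.73 and 2.29 on all 8 arrays, with control wt liquid at -0.15 against wt solid. No probe sequences were used here, and which set measures the transcript was not tested.

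The 140 loci were spread over all 5 nuclear chromosomes, in shares close to those of all unnamed loci measured. Chromosome 1 held 27.1% of them and 26.2% of all unnamed loci, and chromosome 5, where the shares were farthest apart, held 28.6% and 23.3%. In RefSeq's gene order, 3 pairs of the loci were direct neighbours. AT1G52050, AT1G52060 and AT1G52070 formed a run of 3 low loci on chromosome 1. AT1G52070 had 4.01 and 4.27 in SMIFH2 wt liquid, 3.60 and 2.74 in control wt liquid, 4.06 and 5.12 in fh1-1 solid, and 4.22 and 5.64 in wt solid. In all 3 loci of the run the second control array was under the first, and in fh1-1 solid and wt solid the first array was the lower one. The next gene, AT1G52080 (AR791), which is not one of the 140, had control wt liquid at 0.17 against wt solid.

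AT2G43535 and AT2G43540, neighbours on chromosome 2, went in opposite directions. AT2G43535 had 4.87 and 4.78 in SMIFH2 wt liquid, 4.0 and 2.92 in control wt liquid, 5.06 and 4.67 in fh1-1 solid, and 4.53 and 4.64 in wt solid. AT2G43540 had 3.85 and 3.43 in SMIFH2 wt liquid, 4.43 and 4.48 in control wt liquid, 3.62 and 3.69 in fh1-1 solid, and 3.36 and 3.98 in wt solid. The control arrays were thus the lowest for one gene and the highest for its neighbour. On chromosome 3 the high locus AT3G23450 and the low locus AT3G23470 stood with 1 gene between them, and control wt liquid differed from wt solid by 0.89 in the first and by -1.06 in the second. This pair was chosen for mention after its values were seen.

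On chromosome 5 the low loci AT5G26260 and AT5G26280 were separated by 2 genes that were not among the 140. AT5G26260 had 8.60 and 8.45 in SMIFH2 wt liquid, 7.20 and 6.72 in control wt liquid, 8.15 and 7.85 in fh1-1 solid, and 8.33 and 8.41 in wt solid. AT5G26280 had 9.12 and 9.33 in SMIFH2 wt liquid, 7.87 and 8.07 in control wt liquid, 9.44 and 9.46 in fh1-1 solid, and 9.46 and 9.43 in wt solid. Both lay well above the 25th percentile on every array, with the control arrays under all others. AT5G26290, next after AT5G26280, narrowly missed the threshold, with control wt liquid at -0.68 against wt solid and SMIFH2 wt liquid 1.35 above control wt liquid.

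AT5G36920 followed directly on THI2.2 (AT5G36910), the gene of a thionin, a small antimicrobial protein. AT5G36920 had 3.22 and 3.57 in SMIFH2 wt liquid, 4.64 and 5.05 in control wt liquid, 2.79 and 2.51 in fh1-1 solid, and 2.94 and 2.42 in wt solid. THI2.2 had 7.83 and 8.06 in SMIFH2 wt liquid, 3.24 and 3.07 in control wt liquid, 8.08 and 7.71 in fh1-1 solid, and 1.93 and 2.34 in wt solid. The neighbours thus had different orders of the 4 groups: THI2.2 was high with SMIFH2 and in fh1-1, whereas AT5G36920 was highest in the liquid control. For AT5G36920 SMIFH2 wt liquid exceeded wt solid by 0.72 ± 0.23, and by 0.45 without the second wt solid array.

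**Figure D5:**
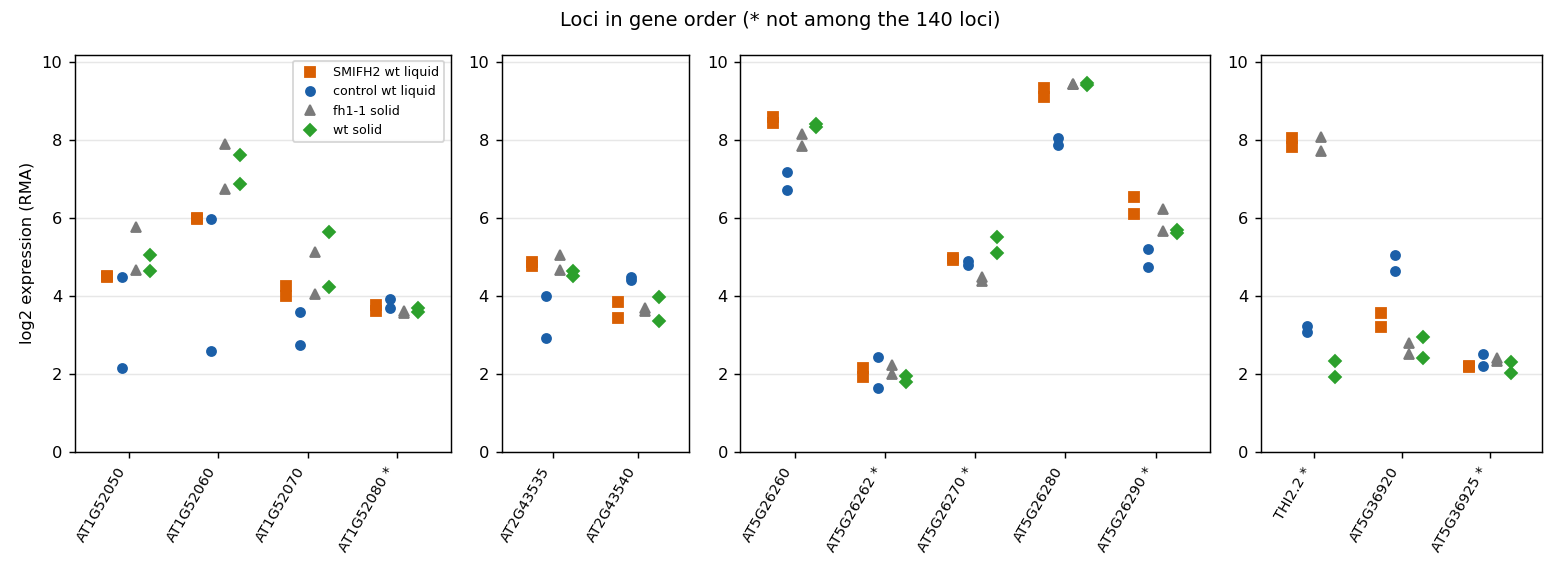
Log2 expression (y axis) on each of the 8 arrays for loci in RefSeq gene order (x axis, spacing not to scale) in 4 stretches; each point is 1 array, colours mark the groups, and an asterisk marks genes outside the 140 loci. Liquid control arrays lie lowest in AT5G26260 and AT5G26280 while AT5G26262 and AT5G26270 between them show other orders, and THI2.2 has its high values in SMIFH2 wt liquid and fh1-1 solid.

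Of 280 positions directly before or after one of the 140 loci, 198 were measured, and 192 of those were genes outside the 140. The 96 such neighbours of high loci had a median difference of control wt liquid from wt solid of 0.01, and 4 of them (4.17%) were at least 0.7 higher, against 2.72% of all unnamed loci. Of the 96 neighbours of low loci (median -0.04), 6 (6.25%) were at least 0.7 lower, against 3.39%. The neighbours included genes with a symbol, such as THI2.2, EULS3 and CHX19, and the unnamed loci did not. These shares are thus of unlike sets of genes.

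Marker genes and pathway lists written from general knowledge contained 0 of the 140 loci and are given to place them. Genes with a symbol could not be among the 140 by the choice. All measured shoot, root, clock, starvation and touch genes had a symbol, so the 0 was fixed in advance for those lists. Of 7 root markers 6 were measured, all beta-glucosidase or lectin genes, so they are not separate measures of root RNA. The marker not measured lies outside these gene families. In control wt liquid 5 of the 6 were called lower than in wt solid and 0 higher (list median -0.91). These were BGLU21, BGLU22, JAL22, JAL33 and JAL34. Of all genes, limma called 2.48% lower and 2.22% higher there. In SMIFH2 wt liquid against control wt liquid BGLU21, JAL22 and JAL33, 3 of the 6, were called higher and 0 lower (median 0.45; 7.78% and 7.07% of all genes). The summed log2 level of the 6 markers was 50.8 to 51.1 in SMIFH2 wt liquid, 47.7 to 48.2 in control wt liquid, 50.6 to 51.1 in fh1-1 solid and 53.2 to 54.4 in wt solid. It was thus lowest in the liquid control, as were the 67 low loci by choice, but it was highest in wt solid. Over the low loci the medians were 4.84 in SMIFH2 wt liquid, 4.98 in fh1-1 solid and 4.93 in wt solid. In fh1-1 solid against wt solid 3 of the root markers were called lower and 0 higher, against 11.7% and 10.9% of all genes. JAL22 (AT2G39310), a jacalin-type lectin, had 8.68 and 8.89 in SMIFH2 wt liquid, 7.66 and 8.11 in control wt liquid, 9.23 and 9.10 in fh1-1 solid, and 9.50 and 9.57 in wt solid. No root marker was near the 25th percentile on any array, the lowest reading 4.50. Whether the share of root RNA had a part in the low loci was not tested.

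All 9 shoot markers were measured. In control wt liquid against wt solid 5 were called higher (PRK, SBPASE, FMA, YAB2 and PSAN) and 0 lower (median 0.65). In SMIFH2 wt liquid against control wt liquid 5 were called higher (RCA, PRK, SBPASE, HPR and PSAN) and 0 lower (median 0.78). Of all genes, limma called 2.22% higher and 2.48% lower in the first comparison, and 7.78% and 7.07% in the second. The same shares apply to the lists that follow. The summed log2 level of the 9 shoot markers was 72.5 to 73.8 in SMIFH2 wt liquid and 65.9 to 66.5 in control wt liquid. It was 72.1 to 73.7 in fh1-1 solid and 59.9 to 60.4 in wt solid. By this sum the liquid control lay between the other groups, unlike in the 140 loci. Single markers varied. RCA, PRK, SBPASE, HPR, SPCH and PSAN had both liquid control arrays above wt solid and under SMIFH2 wt liquid and fh1-1 solid. YAB2 and YAB3 had both liquid control arrays above all others, at 6.06 and 6.63 in YAB2 and 7.14 and 7.20 in YAB3. In FMA the arrays of the liquid control and SMIFH2 wt liquid overlapped. Of 42 genes of the low-oxygen response 21 were measured, and limma called 0 of them in control wt liquid against wt solid, 2 having an unadjusted p under 0.05 (median 0.08). In SMIFH2 wt liquid against control wt liquid 1 of the 21 was called higher, CML38, a calmodulin-like protein, and 5 lower (AT1G19530, AT1G26270, AT4G27450, AT4G39675 and AT5G42200; list median -0.11). Of the clock list, 1 of 13 genes was measured, GI, the flowering-time and clock gene GIGANTEA, which was called in neither comparison. For dark and sugar starvation 3 of 11 genes were measured. In control wt liquid against wt solid 0 were called, and 0 had an unadjusted p under 0.05. All 3 (ATL8, MCCB and MGL) were called lower in SMIFH2 wt liquid than in control wt liquid. All 3 were also called lower in fh1-1 solid than in wt solid (median -1.47). There 3 low-oxygen genes were called higher and 7 lower, against 10.9% and 11.7% of all genes. The touch list had 1 of 7 genes measured, STZ, a zinc finger repressor of transcription, which was higher in SMIFH2 wt liquid than in control wt liquid by 1.22 (adjusted p = 0.0012) and was not called between control wt liquid and wt solid. Of 3 dry-seed markers 0 were measured.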

How the data were processed

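The deposited values were log2 expression from RMA (robust multi-array averaging), made by the authors in Affymetrix Expression Console 1.4 and compared in Transcriptome Analysis Console 3.1, per the submitters' processing notes. The table held 38408 probe sets on 8 arrays. The annotation, whose array build was not stated, listed 17504 probe sets, of which 758 had several genes and were left out, and 20904 were not listed. The other 16746 gave 16554 genes, the brightest probe set standing for the 163 genes with more than 1. RefSeq (TAIR10.1) was used for names and gene order only.

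Groups came from the labels. Differences were fitted with limma 3.58.1 in R 4.3.3 over all 8 arrays (4 residual and 5.81 prior degrees of freedom), with Benjamini-Hochberg adjustment over all genes and a threshold of 0.05. With 2 pools per group, p-values measure the spread between pools, and the number of arrays limits the precision. Plots used matplotlib 3.10.9 (Python 3.11.15). The loci, lists and tests were chosen with earlier results of these data known.

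Named were the 12 loci per direction with the largest distance from the nearer of the 2 other means, the loci beside the threshold, direct neighbours in gene order, loci with a second probe set, and up to 4 called loci per direction with the largest difference. The pair AT3G23450 and AT3G23470, and neighbours in gene order such as THI2.2 and AT5G26290, were described outside that rule. Grouping by gene product and a motif search were planned and not done, since no product text or promoter sequence was used here. Repeat numbers were not treated as pairs in the main fit. Deviations of same-numbered arrays from their group means correlated at -0.055 to 0.014. These values showed no sign of pairing, but with 2 arrays per group they cannot exclude it. The fit was tested on simulated data. Alternatives were other thresholds, no overlap condition, averaged probe sets, omission of the dimmest genes (those in the lowest of 3 equal parts by mean level), quantile and cyclic loess normalization, every probe set, only the 4 arrays compared, a trended prior, repeat number as a block, and omission of each array.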

Additional observations from a re-analysis of the deposited data

How the results depend on the processing

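A threshold of 0.5 chose 168 high and 186 low loci, and one of 1 chose 25 and 18. The count ranged over 71 to 180 high and 62 to 124 low loci when 1 array was left out. It was highest without the second control array, where 180 high loci included 64 of the 73 and 124 low loci included 40 of the 67. Without the first control array there were 95 high and 122 low loci, which included 52 of each. Dropping the overlap condition, averaging probe sets, leaving out the dimmest genes and both normalizations gave 61 to 78 high and 59 to 69 low loci. Of 78 differences of named loci, 27 moved by over 1.5 times from their value over both arrays when 1 array was left out. Between such fits 38 differed by over 1.5 times, and 0 changed sign. In AT5G59660, whose dimmer probe set was mostly under the 25th percentile, averaging the sets changed both differences. Control wt liquid then stood at -0.46 against wt solid, and SMIFH2 wt liquid at 0.51 against control wt liquid.

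For SMIFH2 wt liquid against wt solid, leaving out an array gave 3 to 12 of the 140 loci higher and 1 to 9 lower, and 1150 to 1819 of all genes higher and 1020 to 2086 lower. With every probe set tested, 3 loci were called higher and 2 lower, and 3169 probe sets higher and 2899 lower; more features were then tested. With the repeat number as a block, 5 loci were called higher and 7 lower. Repeat numbers share no known source, and the block called 9 genes higher and 3 lower for SMIFH2 wt liquid against fh1-1 solid. In that comparison only the 4 arrays compared gave 12 genes higher and 3 lower, every probe set gave 0 higher and 0 lower with 0 of the 140 loci, and a trended prior gave 14 lower, with 2 of the 140 loci higher. Leaving out an array gave 0 to 18 genes higher and 0 to 6 lower, and 0 to 1 of the 140 loci higher. Where a setting changed a count, the cause was not tested, except that fewer arrays or more features entered as named. Normalizing again moved the median of all genes by at most 0.05. With an array left out, its group's lone array was assumed to vary like the other groups.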
